A study of Mus musculus with 4 samples.

Results

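DNA methylation in and around 5 genes was examined: Alb, Afp and Afm, which lie side by side on mouse chromosome 5, and Zbtb20 and Zhx2, whose products hold Afp silent after birth. CpGs were taken from each gene body and 10 kb on either side (build mm10) where every library had at least 10 reads with both strands summed. Within these regions the CpGs were thus chosen by read depth and not by methylation level. The 5 genes themselves were chosen with earlier results of these data known. In all, 586 CpGs met the rule, of 1193 listed in these regions and of 1600691 analysed in the genome. Liver libraries labelled KO were of the Pnpla7-/- genotype and those labelled WT of the Pnpla7+/+ genotype, with 2 libraries per genotype. All were C57BL6/N at 6 weeks of age. Reduced representation bisulfite sequencing reads the methylation of CpGs close to restriction sites, here those of TaqI and MspI, as the share of reads that kept a cytosine through bisulfite treatment. Pnpla7 encodes a lysophospholipase that releases glycerophosphocholine, a source of choline and so of methyl groups. The labels do not say whether both libraries of 1 genotype stem from different mice, so a p-value here speaks for these libraries alone. For single CpGs the moderated quasi-binomial model used the same dispersion throughout. Its p-values at single CpGs therefore rest on the reads counted, and how far libraries of 1 genotype differ at a given CpG does not enter them. In whole liver, a change in the mix of cells and a change within 1 cell type cannot be told apart.

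Albumin, the main plasma protein of the adult, and alpha-fetoprotein, its counterpart in the fetus, are made by hepatocytes from neighbouring genes that share regulatory DNA. Afamin, the product of Afm, is a plasma carrier of vitamin E from the same family. Around birth Afp is shut down while Alb stays on. Zbtb20 is a zinc finger repressor that acts on the Afp promoter, and Zhx2 is a zinc finger and homeobox protein whose natural mutation in BALB/cJ mice leaves Afp expressed in adult liver. Low CpG methylation away from CpG islands commonly marks promoters and enhancers in use, whereas gene bodies and intergenic DNA are mostly methylated.

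Promoter sequences of 4 of the 5 genes were in the RefSeq table (GRCm38.p6, the same assembly as mm10), all on the forward strand, and Zhx2 had no entry. They are shown because their CpGs and restriction sites bear on what the assay can read there. Each runs from 250 bases before the start site to 30 after it. Capitals mark CpG and GTTAAT on either strand; GTTAAT is a core of the site of the hepatocyte factor HNF1, which binds the Alb and Afp promoters. The windows are chr5:90460620-90460899 for Alb, chr5:90490464-90490743 for Afp, chr5:90518699-90518978 for Afm and chr16:43247034-43247313 for Zbtb20.
Alb: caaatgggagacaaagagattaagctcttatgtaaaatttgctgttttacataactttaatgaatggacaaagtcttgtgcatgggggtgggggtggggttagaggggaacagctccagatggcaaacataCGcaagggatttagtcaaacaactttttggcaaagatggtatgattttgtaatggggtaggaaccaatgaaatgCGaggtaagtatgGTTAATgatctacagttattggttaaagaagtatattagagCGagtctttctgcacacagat
Afp: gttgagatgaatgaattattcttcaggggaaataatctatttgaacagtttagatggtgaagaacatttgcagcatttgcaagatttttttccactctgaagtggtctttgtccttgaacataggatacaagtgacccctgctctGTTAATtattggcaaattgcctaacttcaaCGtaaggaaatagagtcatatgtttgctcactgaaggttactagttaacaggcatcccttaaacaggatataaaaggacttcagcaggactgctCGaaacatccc
Afm: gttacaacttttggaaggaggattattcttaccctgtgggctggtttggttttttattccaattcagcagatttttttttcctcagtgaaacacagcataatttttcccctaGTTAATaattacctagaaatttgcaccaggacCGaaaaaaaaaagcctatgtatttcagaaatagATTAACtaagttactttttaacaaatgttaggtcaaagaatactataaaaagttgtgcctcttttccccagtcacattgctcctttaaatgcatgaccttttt
Zbtb20: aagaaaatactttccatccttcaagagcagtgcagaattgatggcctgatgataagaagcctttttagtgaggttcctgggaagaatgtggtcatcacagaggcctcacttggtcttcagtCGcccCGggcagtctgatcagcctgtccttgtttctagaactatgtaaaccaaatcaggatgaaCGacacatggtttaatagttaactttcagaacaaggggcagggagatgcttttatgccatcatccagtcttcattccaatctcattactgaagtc

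Over the whole promoter window of the table, which runs a little further past the start, Alb, Afp and Zbtb20 held 3 CpGs each and Afm held 1. The median over 32851 promoters was 7, and 31.4% had 3 or fewer. GTTAAT was found once in Alb, once in Afp and 2 times in Afm, and was not in the Zbtb20 window; 7.1% of all promoters hold it. The TaqI site TCGA stood once in the Afp window (in 22.0% of all promoters) and the MspI site CCGG once in the Zbtb20 window (in 52.8%). Neither site was in the Alb or Afm window. No read covered the 3 CpGs of the Alb promoter or the single CpG of the Afm promoter in any library, so their level was not measured. In Afp the CpG of the TCGA site had 4 methylated of 4 reads in KO replicate 1 and 4 of 4 in WT replicate 2, and no reads in KO replicate 2 and WT replicate 1. The CpG 47 bases after the start had 3 methylated of 4 reads in KO replicate 1 and 1 of 4 in WT replicate 2, too few to compare. Of the Zbtb20 promoter, the CpG in CCGG measured 28.1% and 18.2% in KO replicates 1 and 2, against 12.5% and 15.8% in WT replicates 1 and 2, on 16 to 32 reads. Its CpG 65 bases before the start site measured 19.4% and 19.05% in KO, against 6.25% and 10.5% in WT, on 16 to 31 reads. Both KO libraries lay above both WT libraries at each of these CpGs, by a few reads. The remaining CpG of the Zbtb20 promoter, 129 bases before the start site, had no reads in any library. This promoter lies inside the annotated gene, not at its start coordinate.

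Depth was lowest in WT replicate 1. In Zbtb20 both KO libraries held more reads than both WT libraries (6404 and 6834 in KO, against 5627 and 6129 in WT). The same held in Zhx2 (7878 and 7808 in KO, against 6180 and 7622 in WT), and in Alb, Afp and Afm the genotypes overlapped. Over all analysed CpGs of the genome the median was 25 reads in both KO libraries, against 21 and 25 in the WT libraries. Levels at the 586 CpGs correlated at r = 0.976 between the KO libraries, 0.973 between the WT libraries and 0.970 to 0.975 between genotypes, as a description, since neighbouring CpGs share reads. The mean absolute difference per CpG was 5.69 percentage points between the KO libraries, 6.05 between the WT libraries and 5.92 to 6.44 between a KO and a WT library. A KO library thus differed from a WT library by about as much as libraries of 1 genotype differed from each other. At the depth threshold, 32 CpGs had exactly 10 reads in their shallowest library, and 36 CpGs with 9 fell just outside. Those inside averaged 89.8% and 88.5% in KO and 88.2% and 88.5% in WT, and those outside 77.2% and 78.7% in KO and 73.4% and 76.4% in WT (replicates 1 and 2).

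As a check of the tissue, marker genes of liver cell types were compared by the methylation of their regions (body and 10 kb either side). The 5 hepatocyte markers, Alb among them, averaged 34.9% and 31.3% in KO replicates 1 and 2, against 33.4% and 30.9% in WT replicates 1 and 2. The 5 leukocyte and Kupffer cell markers averaged 77.4% to 79.0% in KO and 76.0% to 77.5% in WT. Endothelial markers averaged 59.0% to 60% in KO and 59.3% to 60% in WT, stellate cell markers 39.9% to 40.7% in KO and 39.6% to 40.7% in WT, and cholangiocyte markers 48.4% to 49.9% in KO and 47.4% to 48.5% in WT. Hepatocyte genes had the lowest region mean of the 5 lists in every library. Within 1 kb of gene starts they did not: the 2 hepatocyte markers with a start in the RefSeq table and at least 3 analysed CpGs there averaged 23.7% and 13.0% in KO and 14.8% and 15.1% in WT, above the 2 stellate cell markers (8.93% and 7.4% in KO and 8.26% and 9.18% in WT) and the single endothelial one (1.55% and 0.912% in KO and 1.2% and 1.74% in WT). Methylation of a region is not a measure of expression, and the part of cell mixture in the results below was not tested.

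The albumin cluster held places of low and of high methylation in both genotypes, all with few listed CpGs. Its 3 genes gave 16 tiles of 1 kb with at least 3 analysed CpGs. Of these, 4 averaged below 20%, or 25%, and 11 of the other 12 averaged above 50%. None of the 16 held more than 12 listed CpGs, and 9.35% of tiles in the genome with 20 or fewer listed CpGs averaged below 20%. Whether a tile lies in a CpG island was not determined.

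Inside Alb, a tile at chr5:90465001-90466000, about 4.63 kb after the start, measured 17.8% and 13.7% in KO replicates 1 and 2, against 14.2% and 13.1% in WT replicates 1 and 2 (4 CpGs, 162 to 229 reads). The CpG at 90465529 was the highest of the 4, at 28.8% and 25% in KO and 27.1% and 18.4% in WT. Libraries of the genotypes overlapped in the tile and at this CpG. By contrast, 4 CpGs in a tile before Alb, at chr5:90456001-90457000, measured 94.1% and 92.4% in KO, against 91.5% and 91.2% in WT. This step from over 90% to below 20% across the Alb start is the largest between neighbouring tiles of the cluster. Nearer the start no CpG reached 10 reads in every library. The 7 CpGs listed within 1 kb of it, from 103 to 466 bases after the start, had 8 of 39 and 0 of 31 methylated reads in KO replicates 1 and 2, against 0 of 28 and 5 of 32 in WT replicates 1 and 2. Those shares are 20.5% (95% exact interval 9.3% to 36.5%), at most 11.2%, at most 12.3% and 15.6% (5.28% to 32.8%). At up to 7 reads per CpG, and with reads counted at several CpGs, a difference was not detectable there.

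Between Alb and Afp, 6 CpGs at chr5:90485001-90486000, about 5.21 kb before the Afp start, formed the second low tile. Upstream enhancers of Afp are known in mouse in the stretch between both genes, though which element these CpGs belong to is not annotated in the table used. The tile measured 17.3% and 13.6% in KO, against 16.6% and 17.1% in WT (151 to 228 reads). All 6 CpGs averaged between 12.9% and 18.8%, so no single position made the tile low. Of these, 90485937 differed most, at 10.3% and 13.5% in KO and 28.6% and 22.7% in WT (adjusted p = 0.731, moderated quasi-binomial model with limma). Both KO libraries lay below both WT libraries at that CpG, by less than the test could separate at 21 to 37 reads.

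Afp itself held the third low tile just inside the gene. At chr5:90492001-90493000, about 1.79 kb after the start, 12 CpGs measured 17.5% and 15% in KO, against 11.7% and 15.6% in WT (283 to 406 reads; difference 2.64 points, adjusted p = 0.931, moderated quasi-binomial model with limma). Levels were higher on both sides of this tile. Closer to the start, the CpG at 90491368 measured 17.4% and 35.3% in KO and 38.1% and 44.0% in WT. All 8 CpGs listed within 1 kb of the start, summed, gave 30% and 30.1% in KO, against 38.2% and 28.9% in WT (68 to 123 reads). Further into the gene, 5 tiles from 5.79 to 14.8 kb after the start averaged between 62.1% and 80.6% over the libraries. The first, at 90496001, measured 77.2% and 77.8% in KO and 79.1% and 88.5% in WT, and the last, at 90505001, 72.3% and 69.0% in KO and 72.5% and 67.1% in WT. Afp thus had 1 low-methylated tile near its 5′ end and a more methylated body beyond it in all 4 libraries. Its 37 body CpGs averaged 50.3% ± 0.471 in KO and 50.4% ± 1.39 in WT (SD, n = 2 libraries each).

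Beyond Afp, 1 CpG at 90515816, 3.13 kb before the Afm start, measured 12.7% and 8.33% in KO, against 10.3% and 13.8% in WT. The other 4 CpGs of that stretch averaged 75.2% to 94.2%. The 3 of them in the next tile, at chr5:90516001-90517000, measured 88.0% and 85.5% in KO, against 76.2% and 75.5% in WT (80 to 138 reads). Both KO libraries lay above both WT libraries in that tile, and the difference of 10.9 points did not pass the test (p = 0.0172, adjusted p = 0.638, moderated quasi-binomial model with limma).

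Within Afm, levels were intermediate to low in the first kilobases and higher further on. A tile about 0.55 kb after the start, at chr5:90519001-90520000, measured 48.6% and 38.1% in KO and 37.1% and 35% in WT (4 CpGs, 62 to 100 reads). The next 2 analysed CpGs were lower, with 10.5% and 11.1% in KO and 16.7% and 17.4% in WT at 90520032, and 9.52% and 21.1% in KO and 10.5% and 17.2% in WT at 90522827. A tile 12.6 kb after the start stood at 91.4% and 87.3% in KO and 83.7% and 91.4% in WT. After the gene, the tile at chr5:90554001-90555000 measured 88.6% and 78.3% in KO and 84.3% and 70.8% in WT, with overlapping libraries (4 CpGs, 65 to 83 reads). The fourth low tile of the cluster lay after Afm, at chr5:90561001-90562000, just past the annotated start of Albfm1, another gene of the albumin family. It measured 27.2% and 9.82% in KO, against 12.5% and 14.3% in WT (3 CpGs, 64 to 112 reads). Here the KO libraries lay on either side of both WT libraries.

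**Figure D1:**
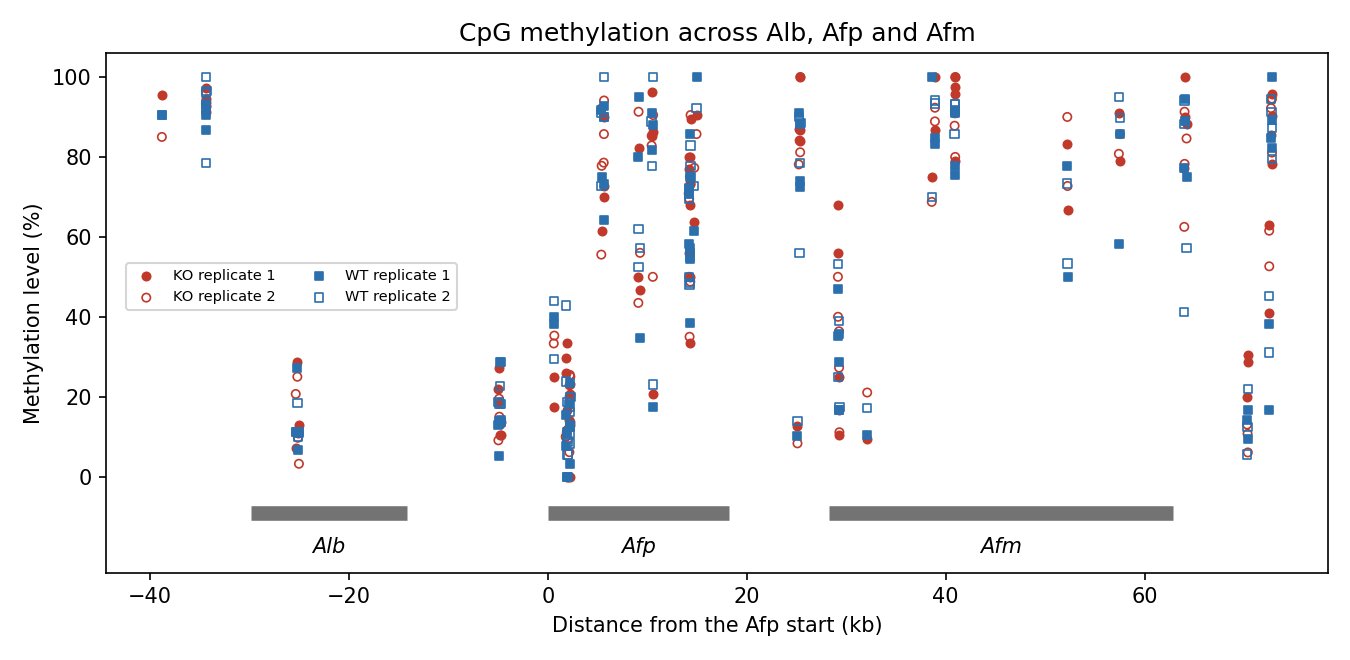
Methylation level (%) of each analysed CpG in and within 10 kb of Alb, Afp and Afm against its distance from the Afp start in kb, with 1 point per library (circles KO, squares WT; filled replicate 1, open replicate 2) and grey bars for gene bodies. Points below 30% gather inside Alb, before and just inside Afp, near the start of Afm and after Afm, in both genotypes, and most points elsewhere lie above 60%.

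Zbtb20 and Zhx2 had another layout, with an unmethylated CpG-dense start and a methylated body. Zbtb20 spans 758.7 kb on chromosome 16, from 42875689 to 43634392, and held 258 analysed CpGs; Zhx2 spans 145.2 kb on chromosome 15, from 57694667 to 57839832, and held 241. Within 1 kb of the Zbtb20 start coordinate, 57 CpGs had 0.302% and 0.996% methylation in KO, against 0.534% and 0.8% in WT (1124 to 1654 reads). Around the lower coordinate of Zhx2, 88 CpGs had 0.136% and 0.143% in KO, against 0.202% and 0.334% in WT (2474 to 3671 reads). Both windows were therefore almost free of methylation in every library. Strand was not given for Zhx2 in the table, so its lower coordinate is named in place of a start, here and below. Around its higher coordinate, 2 analysed CpGs measured 69.6% and 71.1% in KO, against 59.3% and 60% in WT (27 to 56 reads), too few CpGs to be tested. CpGs with 20 or more listed CpGs within 250 bp averaged 0.566% ± 0.412 in KO and 0.736% ± 0.413 in WT in Zbtb20 (57 CpGs), and 0.189% ± 0.087 in KO and 0.431% ± 0.0179 in WT in Zhx2 (104 CpGs; SD, n = 2 libraries each).

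Away from the start, most of Zbtb20 was highly methylated. Of its 31 tiles, 23 averaged above 80%, 6 between 20% and 80% and 2, both at the start, below 20%. A tile with the RefSeq promoter shown above, at chr16:43247001-43248000 and 371.8 kb into the gene, was intermediate at 44.1% and 38.7% in KO, against 29.6% and 36.7% in WT (5 CpGs, 115 to 181 reads; adjusted p = 0.847, moderated quasi-binomial model with limma). Both KO libraries lay above both WT libraries there. The lowest tile beyond the start, at chr16:43334001-43335000, measured 21.0% and 21.2% in KO, against 30.8% and 26.7% in WT (6 CpGs, 146 to 231 reads; adjusted p = 0.775, moderated quasi-binomial model with limma). In that tile both KO libraries lay below both WT libraries. Among the rest, the tile at chr16:43478001-43479000 measured 94.2% and 87.1% in KO, against 72.5% and 85.7% in WT (3 CpGs; difference 11.6 points, adjusted p = 0.799, moderated quasi-binomial model with limma), where WT replicate 1 was the lowest. The highest tile of the gene, at chr16:43208001-43209000, measured 95.1% and 96% in KO, against 100% and 100% in WT. Separation of the genotypes in either direction is common: both KO libraries were above both WT libraries in 19.5% of all tiles and below in 14.9%.

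Zhx2 had intermediate levels on both sides of its dense start. The tile next to it at chr15:57692001-57693000, before the gene, measured 40.7% and 45.0% in KO and 35.8% and 41.9% in WT, and the one at chr15:57696001-57697000, inside it, 21.9% and 22.2% in KO and 17.2% and 21.0% in WT. Libraries overlapped in the first of these and not in the second, where 3 CpGs had 58 to 99 reads. Of the 27 tiles of Zhx2, 15 averaged above 80%, 9 between 20% and 80% and 3 below 20%. Its largest difference, at chr15:57741001-57742000 and 46.8 kb into the gene, was 72.7% and 69.0% in KO, against 50.3% and 58.5% in WT (4 CpGs, 145 to 176 reads). The groups did not overlap, and the difference of 16.4 points missed the threshold (adjusted p = 0.175, moderated quasi-binomial model with limma). Another tile, at chr15:57751001-57752000, measured 72.1% and 97.7% in KO, against 70.7% and 69.5% in WT. KO replicate 2 stood apart from the other 3 libraries in it. The tile at chr15:57774001-57775000 measured 78.6% and 90.1% in KO, against 73.2% and 75.3% in WT (5 CpGs; difference 10.1 points, adjusted p = 0.737, moderated quasi-binomial model with limma), without overlap of the genotypes. The highest tile of Zhx2, at chr15:57821001-57822000, stood at 96.3% and 96.4% in KO and 96.1% and 96.4% in WT.

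**Figure D2:**
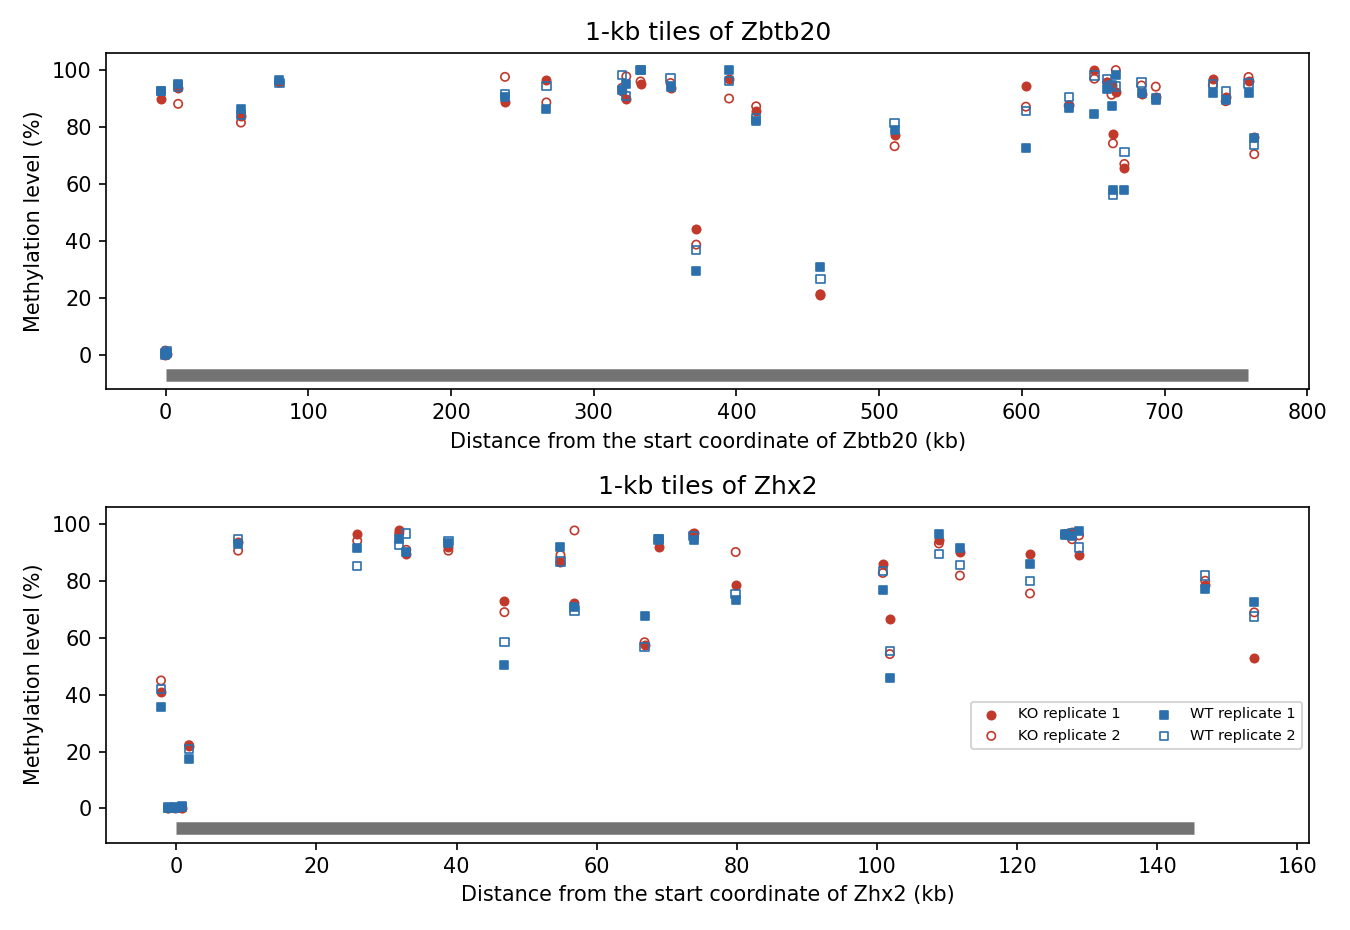
Methylation level (%) of 1-kb tiles with at least 3 analysed CpGs against distance from the start coordinate in kb, for Zbtb20 (top) and Zhx2 (bottom), with 1 point per library (circles KO, squares WT; filled replicate 1, open replicate 2) and a grey bar for the gene body. Tiles at the start lie near 0% in all 4 libraries and most others above 80%; the Zbtb20 tile 663.8 kb from the start has KO points at 77.7% and 74.3% and WT points at 58.0% and 56.3%.

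Of 74 tiles tested in the 5 regions, 1 was called between KO and WT, against 0.149% of the 163610 tiles tested in the genome. That tile was higher in KO (0.108% in the genome), and 0 tiles were called lower (0.0416%). A tile counted as called where its adjusted p was under 0.05 and KO and WT lay 10 or more points apart. Without regard to the test, 6 of the 74 were that far apart (4.04% in the genome), and 8 had an unadjusted p under 0.05 (6.43% in the genome). Because the 5 genes were chosen with earlier results of these data known, these shares are a description and not a test. The called tile lies deep in the body of Zbtb20, at chr16:43539001-43540000, about 95 kb before the end coordinate, and no other annotated gene overlaps it. It measured 77.7% and 74.3% in KO replicates 1 and 2, against 58.0% and 56.3% in WT replicates 1 and 2 (11 CpGs, 282 to 334 reads). Methylation rose to 76.0% ± 2.41 in KO, against 57.2% ± 1.25 in WT (SD, n = 2 libraries each), a difference of 18.8 points with adjusted p = 0.00119 (moderated quasi-binomial model with limma). Whichever library was left out, the tile stayed called, with differences of 17.1 to 20.5 points. The call was lost when limma was run on the log2 ratio of methylated over unmethylated reads (adjusted p = 0.894), a test that called 0 tiles in the whole genome, where 9035 had an unadjusted p under 0.05.

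The difference was not spread evenly over the 11 CpGs of this tile. They form 2 groups, 365 bp apart. In the first, 5 CpGs between 43539301 and 43539402, summed reads gave 89.5% and 89.0% in KO, against 83.1% and 76.9% in WT, a difference of 9.24 points. In the second, 6 CpGs between 43539767 and 43539836, they gave 65.5% and 61.7% in KO, against 39.4% and 38.7% in WT, a difference of 24.5 points. All 11 CpGs averaged higher in KO, and at 10 of them both KO libraries lay above both WT libraries (4 of 5 and 6 of 6). CpGs so close together are read from the same fragments and are not independent. The CpG at 43539819 differed most, at 80.8% and 58.8% in KO, against 32.4% and 29.0% in WT, on 26 to 34 reads. It missed the call by itself at adjusted p = 0.071 (moderated quasi-binomial model with limma), and without it the tile still differed by 16.4 points and was called (adjusted p = 0.00906). The neighbours at 43539816 and 43539823 measured 73.1% and 73.5% in KO, against 36.4% and 45.2% in WT, and 69.2% and 67.6% in KO, against 41.2% and 38.7% in WT. The nearest tested tiles on either side did not follow. The one at 43538001 measured 94.6% and 91.3% in KO and 87.3% and 94.6% in WT, and the one at 43541001 92.3% and 100% in KO and 98.3% and 94.3% in WT. The tile directly after the called one had too few analysed CpGs to be tested, so the extent of the difference on that side is not known.

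**Figure D3:**
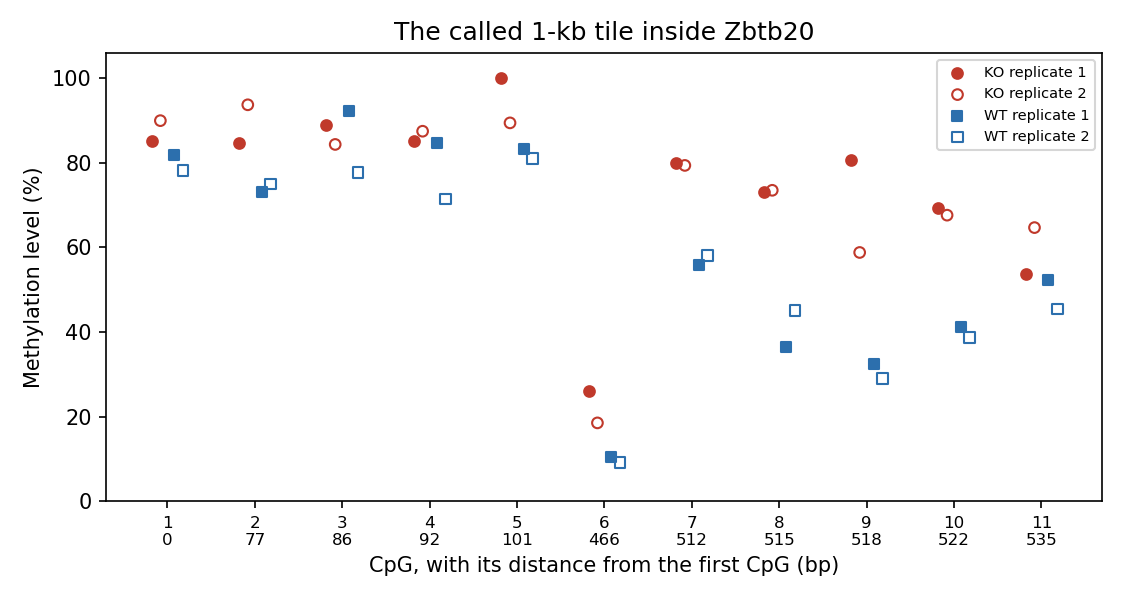
Methylation level (%) of the 11 analysed CpGs in the called tile of Zbtb20, in order, with the distance of each from the first in bp under its number and 1 point per library (circles KO, squares WT; filled replicate 1, open replicate 2). KO points lie above WT points at the 6 CpGs of the second group and at 4 of the 5 of the first.

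No single CpG of the 5 regions was called. Of 468 CpGs tested, 0 were called by the moderated quasi-binomial model, against 0.0403% of 1263975 CpGs in the genome (0.0321% higher and 0.00815% lower in KO), and 32 had an unadjusted p under 0.05 (6.84%, against 5.55% in the genome). In limma on log2 ratios 0 were called and 20 of 468 had an unadjusted p under 0.05, against 5.21% of CpGs in the genome. Both KO libraries lay above both WT libraries at 88 of 586 CpGs (15%, against 11.5% in the genome) and below at 48 (8.19%, against 10%). By gene, both KO libraries were above at 12 of 35 CpGs of Afm and below at 2, above at 46 of 258 and below at 22 in Zbtb20, and above at 22 of 241 and below at 15 in Zhx2. In Afp 10 CpGs lay above and 10 below, and in Alb 2 above and 3 below. Among CpGs with 20 or more reads in every library, the largest difference of Afm was at 90563246, after the gene, with 63.0% and 61.5% in KO, against 38.1% and 45.2% in WT. In Zhx2 it was at 57741415, in the tile of largest difference, with 73.2% and 81.6% in KO, against 48.6% and 68.4% in WT. In the Afp region it was at 90516034, after the gene and shared with Afm, with 86.7% and 84.1% in KO, against 73.9% and 56% in WT. The Afp region's next largest was inside the gene at 90499816, where KO was lower, with 50% and 43.5% in KO, against 80% and 52.4% in WT. Genotypes did not overlap at these 4 CpGs, and adjusted p was 0.731 at each (moderated quasi-binomial model with limma). Alb and Afp share 6 of their CpGs, and Afp and Afm share 5.

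Taking each gene with its flanks as a whole, no member differed between genotypes by the test. Reads summed over the region gave 43.5% and 41.1% in KO and 43.7% and 38.1% in WT for Alb, with overlapping libraries. Afp measured 44.3% and 44.7% in KO, against 43.6% and 43.1% in WT. Afm measured 67.9% and 67.7% in KO, against 65.2% and 63.3% in WT, above those of the other 2 genes of the cluster. For Afp and Afm both KO libraries stood above both WT libraries, by means of 1.15 and 3.54 points. Zbtb20 measured 62.1% and 62.7% in KO, against 65.3% and 64.5% in WT, and Zhx2 38.1% and 38.7% in KO, against 42.0% and 39.7% in WT. For these 2 genes both KO libraries stood below both WT libraries, with differences of -2.52 and -2.48 points. Among all gene regions both KO libraries were above in 18.6% and below in 15.1%. Unadjusted p was 0.619, 0.508, 0.0938, 0.0141 and 0.0344 in the order Alb, Afp, Afm, Zbtb20, Zhx2, and adjusted p was 0.974 or above for each (moderated quasi-binomial model with limma). Of 40107 gene regions tested, 0 were called (0.0%) and 1931 had an unadjusted p under 0.05 (4.81%); limma on log2 ratios also called 0, with 2348 under that limit.

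The lower values of Zbtb20 and Zhx2 moved with the share of reads at their unmethylated starts. CpGs within 1 kb of the start coordinate took 25.8% and 23.5% of the region's reads in KO, against 20% and 22.4% in WT, in Zbtb20, and 46.6% and 44.8% in KO, against 40% and 43.2% in WT, in Zhx2. Without those CpGs the difference was 0.421 points in Zbtb20 (82.6% ± 1.43 in KO and 82.2% ± 1.0 in WT) and 0.742 points in Zhx2 (70.5% ± 0.909 in KO and 69.8% ± 0.19 in WT; SD, n = 2 libraries each). With each CpG weighted equally, Zbtb20 averaged 65.4% ± 0.424 in KO and 64.5% ± 0.733 in WT, and Zhx2 42.7% ± 0.00318 in KO and 42.0% ± 0.266 in WT. Both differences thus changed sign with equal weights and without the start CpGs. Leaving out CpGs in the deepest 1% of the genome kept them, at -2.56 points in Zbtb20 and -2.48 in Zhx2. Afm kept its direction, at 68.5% and 65.7% in KO, against 62.1% and 62.2% in WT, a difference of 4.97 points. Alb averaged 41.0% ± 1.67 in KO and 41.0% ± 0.237 in WT, and Afp 48.2% ± 0.185 in KO and 47.9% ± 0.975 in WT. A 2-against-2 comparison cannot reach an exact permutation p (two-sided) below 0.333.

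In order of mean CpG level, Alb and Zhx2 were lowest, followed by Afp, and Zbtb20 and Afm were highest. Libraries overlapped between Alb and Zhx2 and between Zbtb20 and Afm. Over all 40107 gene regions the median of this level was 56.1%, with quartiles of 28.2% and 80.3%, so the 5 members lay between the quartiles. The makeup of the regions differed too. Alb had 9 of 15 CpGs below 20% and 5 above 80%, and Afm 6 of 35 and 17. Zbtb20 had 64 of 258 below 20% and 151 above 80%, Zhx2 117 of 241 and 84, and Afp 17 of 48 and 11. Afp, with 20 of 48 CpGs at 20% to 80%, was the member with most intermediate CpGs in share, and in the genome 45.0% of CpGs were below 20% and 36.4% above 80%.

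**Figure D4:**
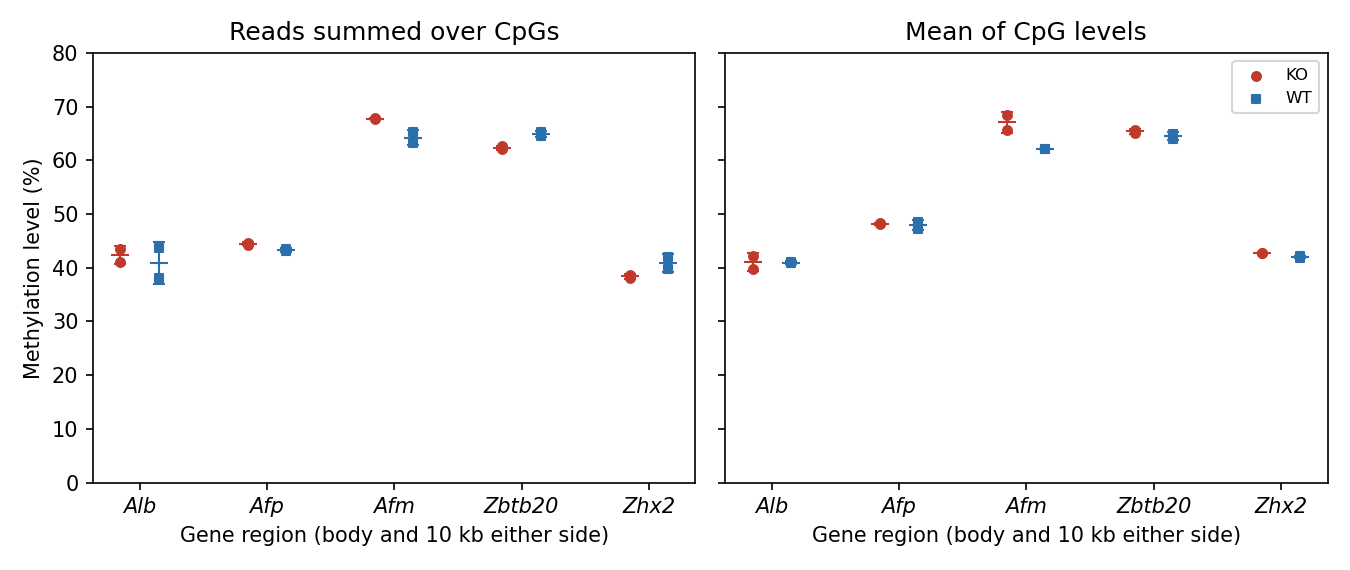
Methylation level (%) of the 5 gene regions per library (points; KO circles left, WT squares right) with the mean and SD of 2 libraries, from reads summed over CpGs (left panel) and as the mean of CpG levels (right panel). Zbtb20 and Zhx2 KO points lie below WT points in the left panel and slightly above in the right, and Afm KO points lie above WT points in both.

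Genes whose region levels came nearest over the 4 libraries, by Euclidean distance among 16082 protein-coding genes with at least 20 analysed CpGs, were Sfxn5 and Mydgf for Alb (0.931 and 1.55 points), Cracd and Kyat3 for Afp (0.513 and 0.629), Adprh and Elapor1 for Afm (0.882 and 0.914), Tyw1 and Slco2a1 for Zbtb20 (0.771 and 1.06) and Gfra2 and Fam222b for Zhx2 (0.596 and 1.08). With 4 libraries such nearness describes levels alone.

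Related genes were looked at through 3 lists. Among 13 transcription regulators of Afp and Alb, 0 gene regions were called; 8 were higher and 5 lower in KO, and their differences had a median of 0.378 points, against 0.108 over all regions; 2 had an unadjusted p under 0.05. Foxa3, a forkhead factor of hepatocytes, measured 19.8% and 19.6% in KO, against 17.1% and 17.9% in WT, and Hnf4a, a nuclear receptor of hepatocyte identity, 62.4% and 59.9% in KO, against 58.8% and 55.5% in WT (adjusted p = 0.974 for both, moderated quasi-binomial model with limma). Of 170 tiles in this list 3 were called, all higher in KO, or 1.76% against 0.149% in the genome. They lie in Nr5a2, a nuclear receptor that activates Afp (44.4% and 50.2% in KO, against 33.9% and 33.2% in WT), in Onecut1, a hepatocyte homeobox factor (26.5% and 20.3% in KO, against 13.9% and 11.6% in WT), and in Foxa1, a forkhead factor (16.5% and 18.2% in KO, against 6.99% and 6.15% in WT). Adjusted p was 0.016, 0.0026 and 4.27e-07 (moderated quasi-binomial model with limma). In limma on log2 ratios 0 tiles were called in the whole genome, so these 3 were not called there. The list was chosen with earlier results of these data known, so its share of called tiles is a description and not a test.

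Among 9 fetal and oncofetal genes, including H19, Gpc3 and Lpl, which Zhx2 also represses in mouse liver, 0 gene regions and 0 of 93 tiles were called. Of the regions 4 were higher and 5 lower in KO, at a median of -0.416 points, with 1 unadjusted p under 0.05. Igf2bp1, a fetal RNA-binding protein, measured 16.5% and 18.5% in KO, against 20.2% and 20.9% in WT, and Dlk1, a fetal membrane protein, 27.1% and 29.3% in KO, against 25.9% and 24.4% in WT. Among 8 adult plasma protein genes 0 regions and 0 of 46 tiles were called, with 5 higher and 3 lower, a median difference of 1.06 points and 0 unadjusted p under 0.05. Fgb, a fibrinogen chain, measured 26.4% and 20.3% in KO and 21.7% and 18.9% in WT, and Trf, transferrin, 39.8% and 36.1% in KO and 36.8% and 35.9% in WT; adjusted p was 0.974 or above for these 4 genes (moderated quasi-binomial model with limma).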

How the data were processed

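Genomic DNA was cut with TaqI and MspI, converted with bisulfite and sequenced, per the labels' protocols. For each of the 4 libraries the authors deposited a track of methylation level (a fraction) and one of read depth, both with a minus sign on the reverse strand, made with GBSA on mm10 per the file headers. BWA 0.7.12 and MACS are named in the submitters' processing notes, which give no role. Multiplying level by depth gave whole methylated reads everywhere (100% within 1e-05). All 22579 listed positions inside 3000 forward-strand RefSeq promoters fell on a CG.

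Strands were summed per CpG, and a CpG was kept where each library had 10 or more reads. At 10 reads with 5 methylated the 95% exact interval is 18.7% to 81.3%. A count of 0 allows about 30%, an approximation taken as 3 counts over 10 reads. Such limits hold for counting error alone, because reads came through PCR. CpGs, 1-kb tiles and gene regions (body and 10 kb either side) with at least 3 such CpGs were tested genome-wide with a moderated quasi-binomial model. Its Pearson dispersion was shrunk with squeezeVar of limma 3.58.1 (R 4.3.3) and held at 1 or above, and two-sided p-values of its quasi-likelihood F test were adjusted by Benjamini-Hochberg. All single CpGs received the same dispersion, 1.09, so their p-values reflect read counts.

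The members and lists were chosen with earlier results of these data known. Named tiles were drawn from the called ones, the 3 of largest difference, the 3 lowest and the highest per gene. Not every one of these is printed singly, and others were added after values were seen. Named CpGs have 20 or more reads, with the low-depth CpGs of the promoters and single low CpGs added likewise. From each list the 2 genes of smallest p are named. Alternatives covered coverage, prior, test, window, weighting, replicate block and each library left out. Gene coordinates are RefSeq's, GRCm38.p6; exons and a genome sequence were not used here.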

Additional observations from a re-analysis of the deposited data

How the results depend on the processing

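Set against each alternative, the called counts and the 5 gene regions kept their direction and their side of the threshold in 86 comparisons, 3 counts moved and 5 differences changed sign. The size of the gene differences, none of them called, was less stable: Alb gave 2.91 points at a minimum of 5 reads, 0.668 at 20 reads and 0.067 as a mean of CpG levels, and the gene body alone gave 2.09 in Alb, 0.54 in Afp, 1.95 in Afm, -2.48 in Zbtb20 and -1.2 in Zhx2. The 1 called tile became 0 in limma on log2 ratios and 0 with a minimum difference of 20 points, which its 18.8 points miss by construction. At a minimum of 20 reads, 1 CpG was called, 43539819 in Zbtb20 (adjusted p = 0.0452, moderated quasi-binomial model with limma), where fewer CpGs were tested. The Zbtb20 and Zhx2 differences turned to 0.939 and 0.659 points as means of CpG levels, and to 0.421 and 0.742 without CpGs within 1 kb of the start coordinate, an alternative chosen after seeing the data, as was leaving out the most different CpG of the called tile. From summed reads the Alb region was lowest in WT replicate 2, at 38.1%, and the cause of that was not tested. Leaving out 1 library gave -1.38 to 4.17 points in Alb, negative without WT replicate 2. The range was 0.898 to 1.4 in Afp, 2.58 to 4.5 in Afm, -2.93 to -2.1 in Zbtb20 and -3.64 to -1.31 in Zhx2, and the called tile kept adjusted p of 0.00491 to 0.0338 (moderated quasi-binomial model with limma). With 2 libraries against 1, the lone library is assumed to vary like the other genotype's.

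The labels do not say whether KO and WT libraries of the same replicate number were handled together. Replicate 1 minus replicate 2 correlated at r = -0.00844 between KO and WT over 163610 tiles. This cannot settle the question, since differences between single libraries also hold the error of read counts. The fit with a replicate block called 0 CpGs and 1 tile of the members (adjusted p = 1.92e-05, moderated quasi-binomial model with limma), and 406 tiles in the genome, against 244. Other genome-wide counts that moved by over 1.5 times were 98 CpGs and 129 tiles with the other prior, drawn from features whose binomial variance reached 5 reads, 192 CpGs and 0 tiles in limma, 127 to 180 CpGs with 1 library left out (against 509), 143 tiles without WT replicate 2, 369 tiles at a minimum of 5 reads and 105 at 20 points. At 26 to 34 reads, the difference of 39.1 points at 43539819 missed the threshold among all CpGs tested and passed it at the minimum of 20 reads.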
